A study of Xenopus laevis with 5 samples.

Results

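The cytosolic ribosomal protein genes of Xenopus laevis were described in ectodermal explants that had received ICD RNA with or without FoxJ1 RNA. A probe set was taken as a member where its gene symbol, without the letter of the copy, was that of a large subunit protein (rpl, rplp) or a small subunit protein (rps, rpsa). Kinases of the rps6k family and mitochondrial ribosomal proteins were left out. This gave 88 probe sets for 71 genes, of 7531 named genes on the array, and the probe set with the highest mean signal stood for each gene. The 71 genes encode 62 proteins, 45 genes of the large and 26 of the small subunit. They comprise 34 L copies, 36 S copies and rps9, which carries no letter. L and S are the copies left by the genome duplication of this frog, and a probe set made for one copy may also bind RNA of the other.

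Synthetic RNA was injected into every embryo when it had 2 cells. Explants of the future ectoderm were taken at stage 9 to 10 and harvested for RNA at stage 22. The 3 samples of the ICD group received RNA for ICD alone, and the 2 samples of the ICD+FoxJ1 group received RNA for both. ICD is the name commonly used for the intracellular domain of Notch, which the labels do not spell out, and every sample carried it, so no group without ICD is compared. FoxJ1 is a transcription factor of motile cilia. Each sample was hybridised to 1 Affymetrix array, and its values are linear signal intensities per probe set. No probe set is annotated foxj1, and 6112 probe sets carry no symbol, so the injected RNA was not checked here. Nothing in the labels says that replicates came from separate clutches, and p-values describe the spread between these samples only.

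The ribosome joins a large subunit, which forms peptide bonds and passes the chain through an exit tunnel, to a small subunit, which reads the messenger RNA. Most ribosomal proteins are needed in equal number, and vertebrate ribosomal protein mRNAs begin with a run of pyrimidines, the TOP sequence, through which their translation is held back or released together. In frog embryos these mRNAs are known to be held outside polysomes early and to enter them later in development. Array signals report RNA only, so neither translation nor protein was measured here.

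Ribosomal protein probe sets were bright. Of the 71 genes, 61 had a mean signal over 1000, and 69 exceeded the background level of every array, the highest signal among 20 probe sets against control sequences that frog RNA lacks. The 2 genes at or below background throughout were rpl28.L, with signals from 9.5 to 14.9, and rpl3l.L, whose mammalian counterpart is a muscle paralogue of rpl3, with signals from 1.7 to 4.4. Neither passed the filter that removed the dimmest 25% of probe sets, so 69 genes were tested, 43 of the large and 26 of the small subunit. A further 2 genes, rps10.L and rps20.L, were tested at mean signals of 42.0 and 49.1.

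The arrays differed technically in a way that crosses the groups. Bacterial poly-A control RNAs, added before labelling, gave median signals of 318 and 324 on ICD replicates 1 and 2 and of 368 on ICD+FoxJ1 replicate 1, against 2.95 on ICD replicate 3 and 1.90 on ICD+FoxJ1 replicate 2. The bioB hybridisation controls divided the same way, with medians of 86.4, 104 and 99.8 where poly-A signal was present and of 228 and 250.5 where it was not. No label names a batch, and the step that differed is not known. The division, drawn from the control signals, is called the poly-A batch, and values within each batch are given beside the pooled ones. Among the tested ribosomal protein genes, 62 of 69 were higher on ICD replicate 3 than on both other ICD arrays, and 50 of 69 were higher on ICD+FoxJ1 replicate 2 than on replicate 1. Over all probe sets tested these shares were 32.2% and 47.8%. Among 831 other probe sets with a mean signal over 1000 they were 40.2% and 65.2%. Among 37 genes of the mitochondrial ribosome they were 51.4% and 75.7%. Both arrays without poly-A signal thus ran high for these genes within their own group. The higher values on ICD+FoxJ1 replicate 2 were not particular to these genes.

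Most ribosomal protein genes had lower signals with FoxJ1, by small amounts, and few passed the test. The summed signal of the 71 probe sets was 165420 on ICD replicate 1, 157107 on ICD replicate 2 and 199913 on ICD replicate 3, compared with 125364 and 146148 for the FoxJ1 arrays. Both arrays with FoxJ1 lay below all 3 ICD arrays. For the small subunit alone the groups overlapped, with sums of 64510 on ICD+FoxJ1 replicate 2 and 63442 on ICD replicate 2. The sums of all 71 probe sets were 3.98%, 3.87% and 4.67% of the whole signal of the ICD arrays. They were 3.13% and 3.44% of that of the arrays with FoxJ1. The log2 difference, ICD+FoxJ1 minus ICD, of log2(signal + 16), was below 0 in 67 of 69 genes, against 51.9% of all 11618 probe sets tested. Its median was -0.38 over the ribosomal protein genes, with quartiles of -0.55 and -0.21, and -0.03 over all probe sets. Of 831 other probe sets with a mean signal over 1000, 59.1% had a difference below 0. Because the arrays hold RNA of whole explants, fewer cells of one type and less RNA per cell cannot be told apart. Each array had also been scaled to nearly the same trimmed mean. The signals are therefore relative within an array, and the amount of RNA per explant was not measured.

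Of the 69 genes, 3 fell and 0 rose (limma, Benjamini-Hochberg adjusted p under 0.05 over all probe sets tested), which is 4.35%, where 2.99% of all probe sets fell and 4.48% rose. The share that passed was therefore near the background. At an unadjusted p under 0.05, 23 genes were lower and 0 higher, against 12.3% of all probe sets in each direction. In 38 genes both arrays with FoxJ1 lay below all ICD arrays, and in 0 above, where 23.0% of all probe sets lay below and 21.2% above. Of 831 other probe sets with a mean signal over 1000, 32.9% lay below and 17.9% above. The other 31 ribosomal protein genes overlapped between the groups. Leaving out ICD replicate 2 or ICD replicate 3 left 0 genes past the threshold. Calls over all 11618 probe sets dropped as well, from 347 that fell to 206 and 166. With so few calls, 0 among 69 genes says little about these genes. Without ICD replicate 2, ICD replicate 3 or either array with FoxJ1, the median ran from -0.30 to -0.46.

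**Figure D1:**
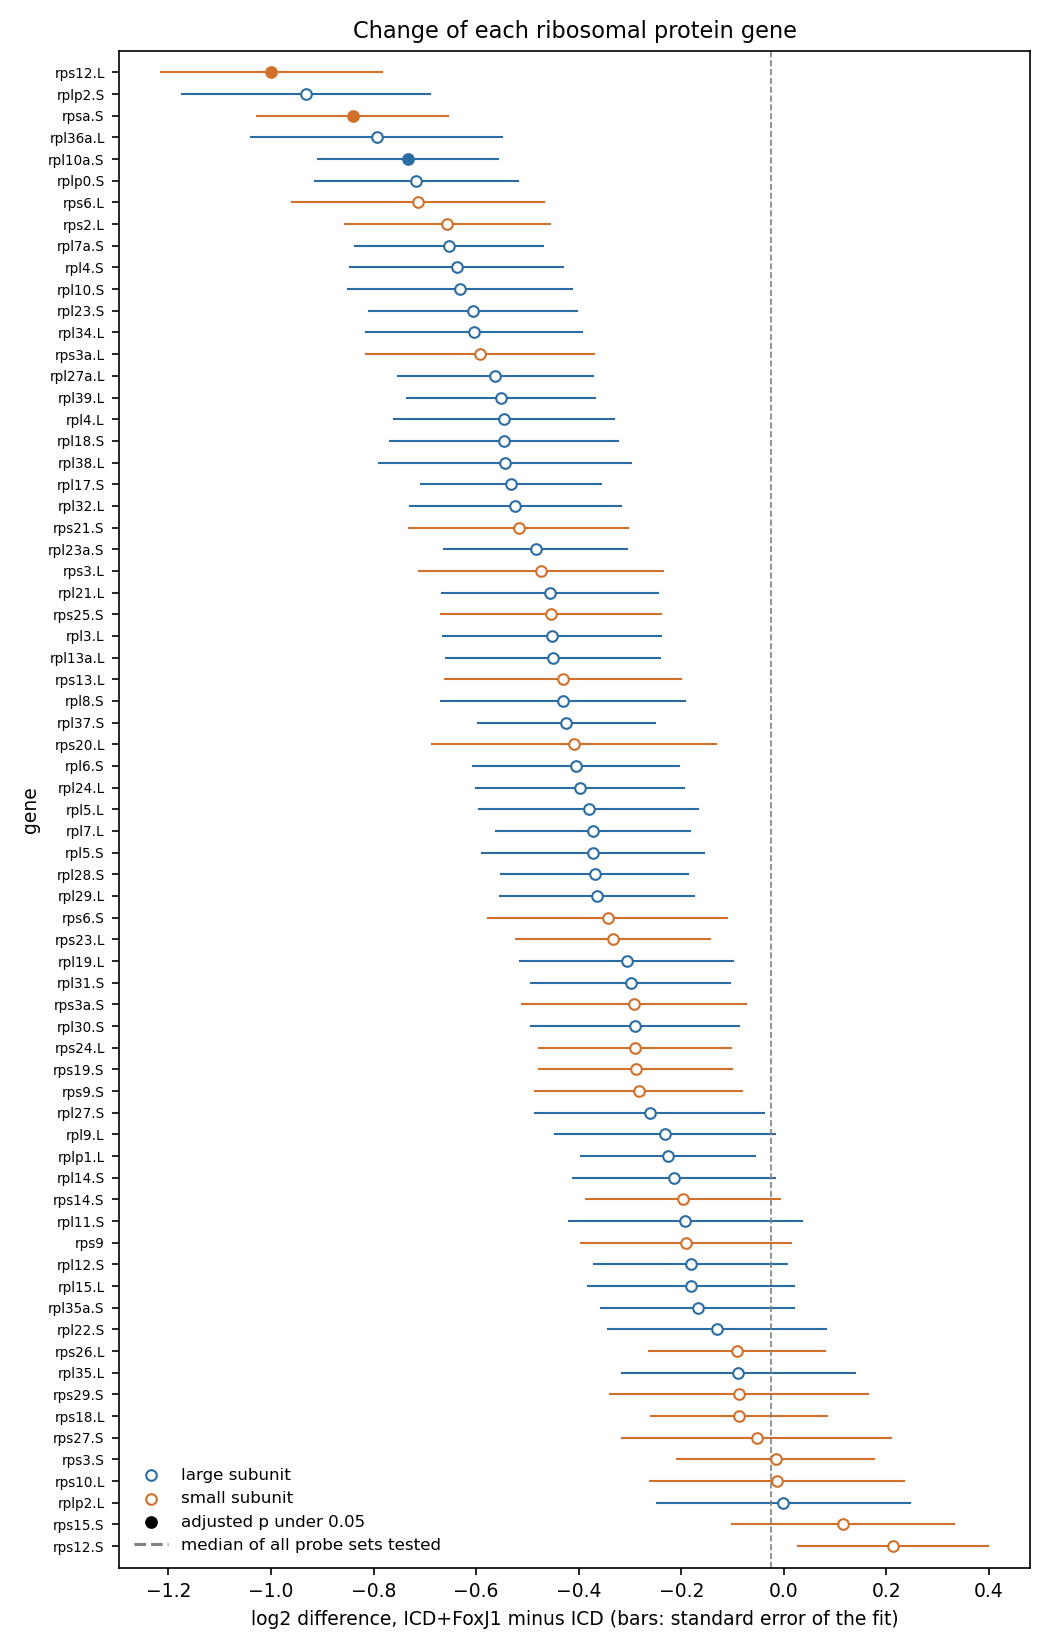
Log2 difference, ICD+FoxJ1 minus ICD, of each of the 69 ribosomal protein genes tested, with the standard error of the limma fit as bars and subunits in colour. Filled points passed the test, the dashed line is the median of all probe sets tested (-0.03), and 67 points lie below 0.

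The difference was seen in both poly-A batches. Among the arrays with poly-A signal the median log2 difference was -0.35, and between the 2 arrays without it -0.50. In 61 of 69 genes ICD+FoxJ1 was lower within both batches, against 38.0% of all probe sets. With the batch as a block in the model, 6 genes fell and 0 rose, namely rpl10.S, rpl10a.S, rplp0.S, rps2.L, rps6.L and rpsa.S, where 1.82% of all probe sets fell and 3.21% rose. The median was then -0.40. After quantile normalization 6 genes fell and 0 rose as well, where 3.62% of all probe sets fell and 4.79% rose. Exceptions within a batch were rps10.L and rps20.L, both dim, rps15.S and rps12.S, and also rplp2.L, rpl22.S, rps26.L and rps3.S, each higher in 1 batch or in both.

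**Figure D2:**
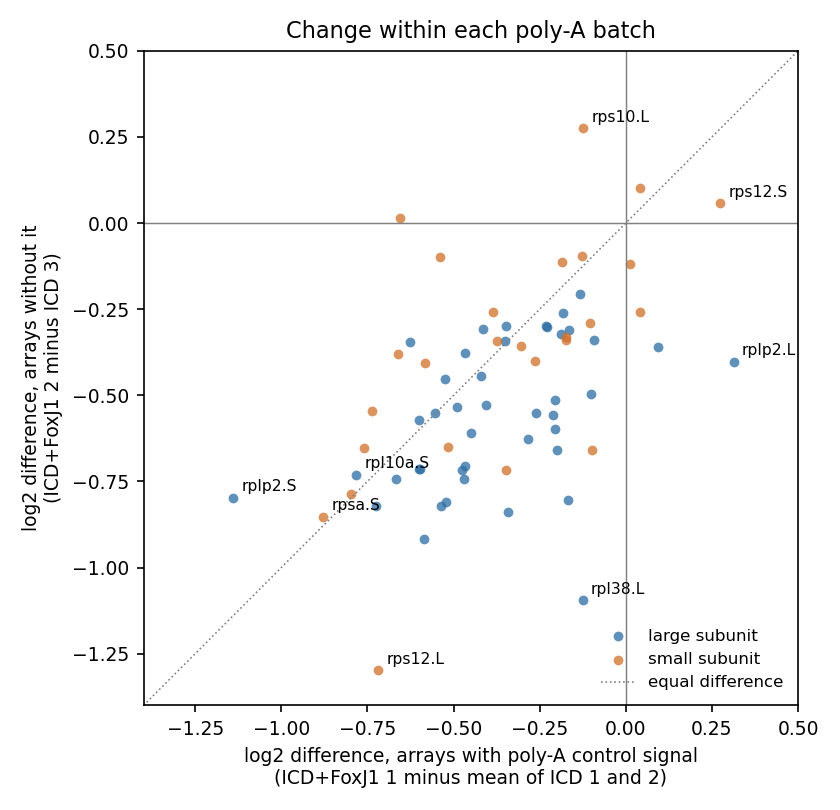
Log2 difference of each ribosomal protein gene within the arrays with poly-A control signal (horizontal axis) and within those without it (vertical axis), 1 point per gene. Of 69 genes, 61 lie below 0 on both axes. Among those far from the line of equal differences are rpl38.L, rplp2.L, rps20.L, rpl3.L and rps12.L.

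On single arrays the genes moved together. Relative to each gene's own mean over the 5 arrays, the median log2 signal was 0.09 for ICD replicate 1, 0.02 for ICD replicate 2 and 0.33 for ICD replicate 3, while ICD+FoxJ1 replicates 1 and 2 had -0.32 and -0.15. ICD replicate 3 was the highest array of all for 59 genes. ICD+FoxJ1 replicate 1 was the lowest for 46 and ICD+FoxJ1 replicate 2 for 17, of 69 genes. In the same order, these counts were 1991, 2438 and 2484 among all 11618 probe sets tested. Among 831 other probe sets with a mean signal over 1000 they were 178, 292 and 147.

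**Figure D3:**
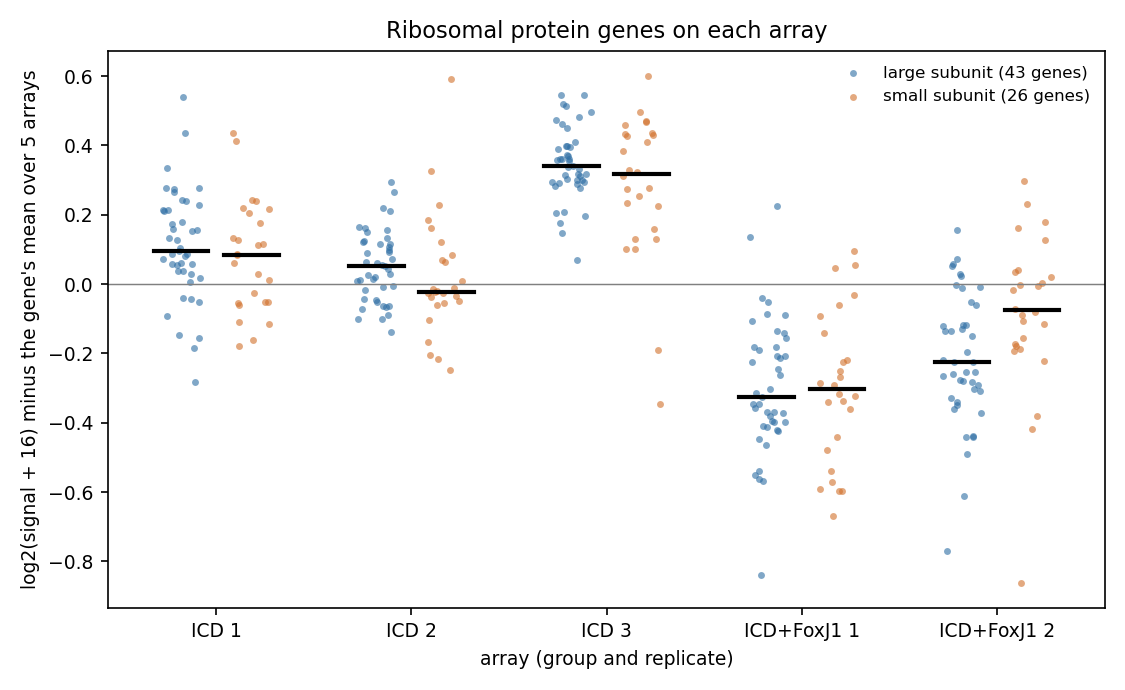
Log2(signal + 16) of each tested ribosomal protein gene minus its mean over the 5 arrays, by array and subunit, with 1 point per gene and black bars for medians. The medians of both subunits are highest on ICD replicate 3, and those of the arrays with FoxJ1 lie below 0.

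Of 43 large subunit genes, 1 fell and 0 rose, or 2.33% against the 2.99% of all probe sets that fell, and all 43 had a difference below 0, with a median of -0.42. Of 26 small subunit genes, 2 fell and 0 rose, which is 7.69%, 24 had a difference below 0, and the median was -0.29. Both arrays with FoxJ1 lay below all ICD arrays for 29 large (67.4%) and 9 small subunit genes (34.6%), against 23.0% of all probe sets. Among 831 other probe sets with a mean signal over 1000 this share was 32.9%, and that of the small subunit was near it. The gap between the subunit medians differed between arrays. On ICD+FoxJ1 replicate 1 the large and small subunit medians about the gene means were -0.32 and -0.30, and on ICD+FoxJ1 replicate 2 they were -0.23 and -0.08. Without ICD+FoxJ1 replicate 2 the median differences were -0.50 and -0.40, and without ICD+FoxJ1 replicate 1 they were -0.42 and -0.19. The gap between subunits was not tested, since genes are not replicates, and it is that of the members only. Probe sets annotated to several genes, described below, ran from -0.64 in rpsa to -0.21 in rps3 for the small subunit. For the large subunit they ran from -0.56 in rpl4 to -0.35 in rpl21. Among them the groups overlapped only in rps20 and rps3, and in the rest FoxJ1 lay below.

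The small subunit gene with the lowest difference was rps12.L, which encodes a protein of the head of the subunit that in Drosophila takes part in competition between cells with different ribosomal protein dosage. Its signals were 2064.0, 1908.8 and 2063.5 with ICD alone, against 1199.2 and 830.0 with FoxJ1. The ICD arrays differed little among themselves, and both arrays with FoxJ1 lay well below them. The mean went from 2012 ± 89.5 (SD, n = 3) to 1015 ± 261 (SD, n = 2), and on the log2 scale it fell by 0.999 (SE 0.22, limma adjusted p = 0.0333). It was -0.72 in the batch with poly-A signal and -1.30 in the other, and with the batch as a block it did not pass (limma adjusted p = 0.0547). Of 15 alternatives to the main settings it passed in 8. Leaving out ICD replicate 2, ICD replicate 3, ICD+FoxJ1 replicate 1 or ICD+FoxJ1 replicate 2 gave limma adjusted p of 0.0784, 0.0853, 0.0768 and 0.227.

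Rpsa.S encodes a protein on the platform side of the small subunit that was also described as a laminin receptor precursor. Its signals were 2979.4, 2503.1 and 3025.8 with ICD and 1478.4 and 1668.6 with FoxJ1, so the groups were clearly apart. Its mean of 2836 ± 289 (SD, n = 3) with ICD compares with 1574 ± 134 (SD, n = 2) with FoxJ1, a 1.79-fold fall of signal + 16 (log2 -0.84, SE 0.19, limma adjusted p = 0.0360). The difference was nearly the same in both batches, -0.88 and -0.85, and passed with the batch as a block (limma adjusted p = 0.0387). Of 15 alternatives to the main settings it passed in 7. The call was lost when ICD replicate 2 or 3 was left out (limma adjusted p = 0.0701 and 0.0983) and when ICD+FoxJ1 replicate 1 or 2 was (0.255 and 0.151). A separate probe set annotated to both rpsa copies differed by -0.64 (limma adjusted p = 0.0871), with the groups apart.

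Rpl10a.S, of the L1 stalk that contacts the departing transfer RNA, was the only large subunit gene past the threshold. Its signals were 3164.1, 3017.5 and 3418.5 with ICD and 1788.9 and 2054.7 with FoxJ1. Again both arrays with FoxJ1 stood below all 3 others. The mean went from 3200.0 ± 203 (SD, n = 3) to 1922 ± 188 (SD, n = 2), or -0.73 in log2 (SE 0.18, limma adjusted p = 0.0469), and within the batches it differed by -0.78 and -0.73. With the batch as a block it passed (limma adjusted p = 0.0366). Of 15 alternatives to the main settings it passed in 6. It did not pass with no filter, with equal array medians or with no variance trend (limma adjusted p = 0.0657, 0.0591 and 0.0825). Removal of ICD replicate 2 or 3 ended the call (limma adjusted p = 0.109 and 0.122), as did that of ICD+FoxJ1 replicate 1 or 2 (0.303 and 0.163).

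The P stalk, a flexible arm built of Rplp0 with dimers of Rplp1 and Rplp2, draws translation factors that hydrolyse GTP to the ribosome. Rplp0.S had signals of 2996.0, 2833.7 and 3699.3 with ICD and 1757.6 and 2084.4 with FoxJ1, with the groups apart. Without the batch in the model, -0.72 (SE 0.20) missed the threshold (limma adjusted p = 0.0724) and passed with it (-0.77, limma adjusted p = 0.0373). Rplp1.L had signals of 3175.0, 2953.3 and 3448.4 against 2686.2 and 2756.8, also apart but closer together, with a log2 difference of -0.23 (95% interval -0.62 to 0.17, limma adjusted p = 0.455). Both copies of rplp2 are described with the homeologs.

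In the large subunit, the lowest difference after rplp2.S was that of rpl36a.L, with signals of 1732.5, 1431.6 and 1317.9 against 1044.5 and 689.8 and a log2 change of -0.79 (SE 0.25, limma adjusted p = 0.0989). The 9 genes for proteins that line or surround the exit tunnel ranged from -0.64 in rpl4.S to -0.09 in rpl35.L, with a median of -0.48, and 0 of them passed the test. Rpl5.L, rpl5.S and rpl11.S, whose proteins bind the 5S RNA and, when free, the p53 regulator Mdm2, differed by -0.38, -0.37 and -0.19. The 3 genes of proteins near the peptidyl transferase centre, rpl3.L, rpl8.S and rpl10.S, differed by -0.45, -0.43 and -0.63, and rpl10.S passed with the batch as a block (limma adjusted p = 0.0406). Rpl38.L, whose mouse counterpart is needed for the translation of certain Hox mRNAs, was uneven between batches, at -0.13 and -1.10. These structural groups were drawn up after the values had been seen and are not tested as groups.

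In the small subunit, the 15 genes of the body and platform had a median of -0.33 and all lay below 0, and the 11 genes of the head had a median of -0.09. The head list includes rps10.L and rps20.L on dim probe sets. For rps10 and rps15 brighter probe sets gave lower values, as given below. For rps20 a brighter probe set annotated to both copies differed by -0.21, with the groups overlapping, against -0.41 for rps20.L. Rps2.L, at the channel where messenger RNA enters, had signals of 5080.7, 4556.4 and 5913.4 with ICD and 2836.4 and 3757.1 with FoxJ1. Its log2 difference was -0.66 (SE 0.20, limma adjusted p = 0.0956), and -0.71 with the batch as a block, which passed (limma adjusted p = 0.0355). The groups were apart. Rps15.S, a head protein near the decoding site, had signals of 923.1, 822.3 and 1051.1 against 897.5 and 1128.4, which overlap, and was 1 of 2 genes with a difference above 0 (0.12, 95% interval -0.39 to 0.62). A brighter probe set annotated to both rps15 copies differed by -0.23 (limma adjusted p = 0.497), with the groups apart and FoxJ1 below. Rps10.L, also of the head, had signals between 29.2 and 51.8 on all arrays and a difference of -0.01. A brighter probe set annotated to both rps10 copies differed by -0.63 (limma adjusted p = 0.0990) with the groups apart.

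Of the 3 brightest members, rps2.L differed as given above, and the other two, rps29.S and rps27.S, had differences near 0 that did not pass. Rps29.S, a zinc-binding protein gene of the head, had signals of 6007.2, 5827.9 and 9296.8 with ICD and 5509.0 and 7603.1 with FoxJ1, a log2 difference of -0.09 (95% interval -0.67 to 0.50). Rps27.S, which encodes another zinc-binding protein, had signals of 5783.3, 5834.4 and 8709.6 against 5103.6 and 8050.7, a log2 difference of -0.05 (95% interval -0.66 to 0.56). In both genes the 2 arrays without poly-A signal were the highest, and the groups overlapped. Dimmer probe sets of the same genes gave other values. The 2 other probe sets of rps29.S differed by -0.38 and -0.46, each with the groups apart, and the 3 others of rps27.S by 0.0053, -0.21 and -0.31.

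Of the 13 genes with several probe sets, rpl13a.L gave nearly equal differences on both of its own, -0.45 and -0.45, at mean signals of 2065 and 877. For rps3a.L, a gene of the mRNA exit side, the brighter probe set gave -0.59 (limma adjusted p = 0.156) and the dimmer one -0.79 (limma adjusted p = 0.0598). Probe sets of rpl35.L and rpl35a.S with mean signals of 82.7 and 82.0 differed by 0.49 and 0.34, whereas the bright ones of these genes differed by -0.09 and -0.17. Besides the 88 probe sets, 17 others are annotated to several genes of which at least 1 is a ribosomal protein, mostly both copies of one gene. All 17 had differences below 0, against 51.9% of all probe sets, from -0.64 to -0.21 with a median of -0.36. Of these 0 passed the test, where 2.99% of all probe sets fell. In 15 (88.2%) the groups were apart with FoxJ1 below, against 23.0% of all probe sets. Most of them share RNA with the members and are no separate evidence. Those of rps4x, rps7, rps16 and rpl13 stand for proteins without a member. They differed by -0.33, -0.50, -0.51 and -0.35, and that of rpl13.S is also annotated to casc3.S.

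Both copies of 8 proteins were measured, and for 7 both copies passed the filter, rpl28.L being at background. The question there is whether the L and the S copy changed unequally, which was tested on log2 L minus log2 S per array over all 799 such pairs of genes on the array. Of all pairs 1.88% passed (limma, adjusted p under 0.05), and of the 7 ribosomal protein pairs 0 passed. At an unadjusted p under 0.05 there were 2 of 7, rps12 and rplp2, against 16.6% of all pairs. In 4 of the 7 pairs the values of the groups did not overlap, against 34.8% of all pairs.

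The rps12 copies differed most. While rps12.L fell, rps12.S had signals of 2231.2, 2026.9 and 2588.7 with ICD and 2575.6 and 2695.8 with FoxJ1, a log2 difference of 0.21 (95% interval -0.22 to 0.64), the highest of all 69 genes. Log2 L minus log2 S was -0.11, -0.09 and -0.32 with ICD alone, against -1.09 and -1.68 with FoxJ1. The change of L relative to S was -1.21 (SE 0.27, 95% interval -1.83 to -0.59, limma adjusted p = 0.0609). It passed with 64 in place of 16 added to the signal (limma adjusted p = 0.0345, where 4.62% of pairs passed), after quantile normalization (limma adjusted p = 0.0481, 2.51% of pairs) and with the dimmest 50% of probe sets left out (limma adjusted p = 0.0403, 4.06% of pairs). It passed in only these 3 of 15 alternatives, and not with the poly-A batch as a block (limma adjusted p = 0.0688). Over all 15 alternatives the estimate ran from -1.51 to -0.92.

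For rplp2 the order was the other way round. Rplp2.S had signals of 1397.4, 1154.5 and 1480.4 with ICD and 568.0 and 845.3 with FoxJ1, clearly apart, and were lower by log2 -0.93 (SE 0.24, limma adjusted p = 0.0604). Rplp2.L had signals of 567.6, 748.9 and 787.2 against 814.0 and 591.6, which overlap, and a log2 difference of -0.00055 (95% interval -0.58 to 0.57). In rplp2.L the batches disagreed in sign, at 0.31 and -0.40. The change of L relative to S was 0.93 (SE 0.36, 95% interval 0.10 to 1.76, limma adjusted p = 0.255).

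The other 5 pairs did not pass. Rps3.L, of the mRNA entry channel, had signals of 2029.7, 1731.5 and 2296.8 against 1178.4 and 1761.5. Rps3.S had 1163.1, 1239.7 and 1409.0 against 1209.9 and 1296.9. Both copies overlapped between the groups, and L minus S differed by -0.46 (95% interval -1.04 to 0.12). For rps6, the target of S6 kinase, rps6.L had signals of 1811.6, 2083.5 and 2701.2 against 1111.5 and 1558.0, and rps6.S of 363.4, 431.1 and 459.9 against 368.5 and 285.7. The L copy was apart between groups and the S copy overlapped, with a relative change of -0.37 (95% interval -1.08 to 0.34). The relative change was -0.30 in rps3a (95% interval -0.82 to 0.23), 0.09 in rpl4 (95% interval -0.40 to 0.59) and -0.01 in rpl5 (95% interval -0.53 to 0.51). Over all genes, the 32 tested L copies had a median difference of -0.42 with 1 gene that fell, and the 36 S copies of -0.36 with 2 that fell. These are 3.1% and 5.6%, both near the 2.99% of all probe sets that fell.

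**Figure D4:**
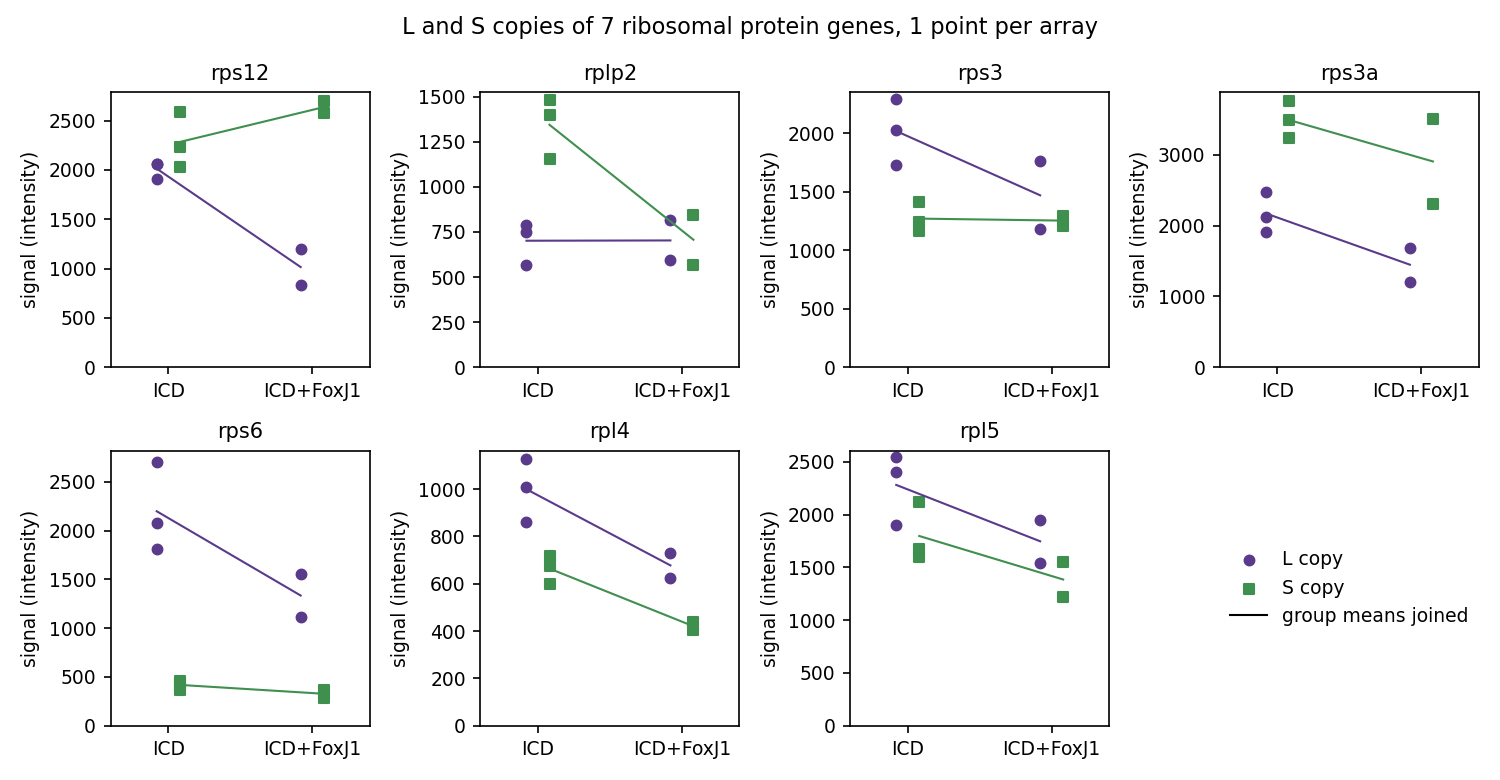
Signal intensity of the L and S copies of 7 ribosomal protein genes on each array, by group, with lines between group means and an axis of its own from 0 for each gene. In rps12 the L copy is lower with FoxJ1 and the S copy is not, in rplp2 the S copy is lower and the L copy is not, and in rpl4 and rpl5 both copies run in parallel. Levels of different probe sets are not comparable.

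Other genes of protein synthesis were counted by list. Of 22 genes of TOP mRNAs and ribosome-associated proteins outside the members, 1 fell, 0 rose and 21 did not pass, with a median of -0.19. That is 4.55%, near the 2.99% of all probe sets that fell. The one that fell was eif4b.S, an initiation factor gene (-0.79, SE 0.19, limma adjusted p = 0.0472), a call that no removal of a single array left in place. The elongation factor genes eef1b2.L and eef1g.S differed by -0.57 and 0.55 and did not pass. Of 17 genes that control ribosomal protein synthesis, 1 fell and 0 rose, or 5.88% against the same 2.99%. Their median of -0.17 had no stable sign, being 0.04 without ICD replicate 3, 0.03 on the poly-A arrays alone and -0.40 without ICD replicate 1. It was ssb.L, which encodes the La RNA-binding protein (-1.21, SE 0.29, limma adjusted p = 0.0469), followed by cnbp.L (-1.05) and larp4.S (0.69), which did not pass. The list had 2 genes that fell without ICD replicate 1 and 0 without any other single array. Of 3 near matches to ribosomal proteins, rpl22l1.L, rpl7l1.L and rsl24d1.S differed by -0.67, -0.78 and 0.29, and 0 passed.

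Genes of ribosome assembly and the nucleolus showed larger differences. Of 67 genes, 15 fell, 0 rose and 52 did not pass, with a median of -0.81, and in 55 the groups were apart with FoxJ1 below. These are 22.4% and 82.1% of the list, against 2.99% and 23.0% of all probe sets. Nop2.L, a methyltransferase gene of ribosomal RNA, had a mean of 764 ± 182 (SD, n = 3) without and 245 ± 49.4 (SD, n = 2) with FoxJ1, which is -1.57 on the log2 scale (limma adjusted p = 0.0143). Dkc1.L, the pseudouridine synthase gene, and nop16.S fell as well, with log2 differences of -1.16 and -1.11. The count moved with arrays: 21 fell when ICD replicate 1 was left out, 17 when replicate 2 and 2 when replicate 3 was, 0 without either array with FoxJ1, and 3 with the batch as a block, or 4.48% against 1.82% of all probe sets. Of all 11618 probe sets, 655 fell without ICD replicate 1, 206 without replicate 2, 166 without replicate 3, and 42 and 34 without ICD+FoxJ1 replicate 1 and 2. Of 37 genes of the mitochondrial ribosome, 0 passed, the median was -0.04, and the genes with the smallest p, mrpl51.L, mrps24.S and mrpl16.S, differed by 0.70, -0.66 and -0.56.

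**Figure D5:**
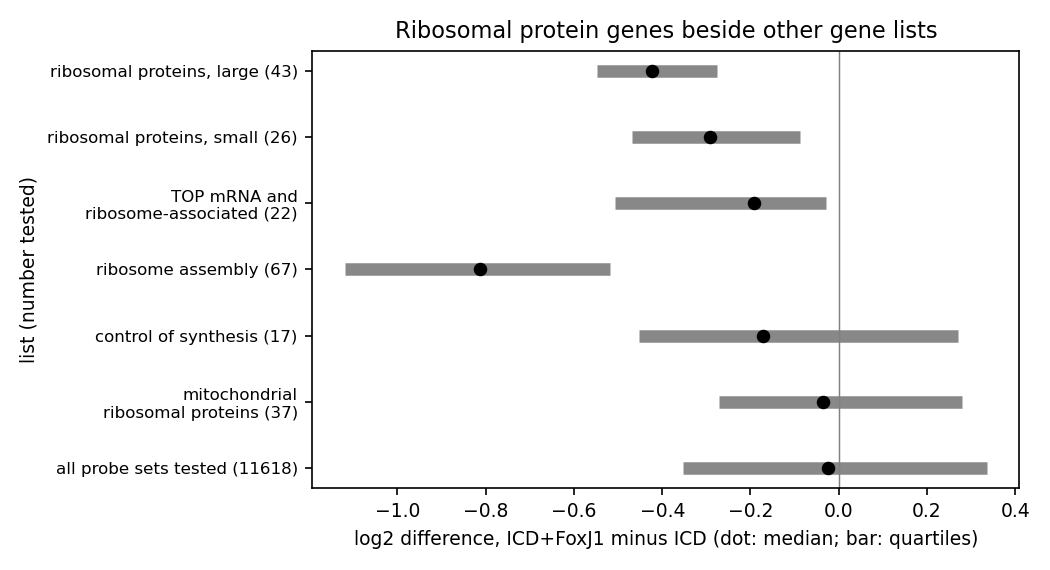
Median (dot) and quartiles (bar) of the log2 difference, ICD+FoxJ1 minus ICD, in the ribosomal protein genes of each subunit, in 4 other gene lists and in all 11618 probe sets tested. The medians are -0.42 and -0.29 for the large and small subunit, -0.81 for ribosome assembly and -0.04 for the mitochondrial ribosome.

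Some marker genes of cell types also differed between the groups, where 2.99% of all probe sets fell and 4.48% rose. Of 13 multiciliated cell genes, 13 rose, and their summed signal went from between 466 and 1802 with ICD alone to 22041 and 25163 with FoxJ1. Of 15 epidermis genes 5 fell and 0 rose, with sums of 41618 to 54723 and of 33548 and 39440. The epidermis list did not move as a whole. In it 8 genes (53.3%) had a difference below 0, against 51.9% of all probe sets, and the highest was 0.82. Of the ionocyte genes tested 2 of 6 rose, with sums of 484 to 638 and of 895 and 1106 over 9 genes. In 1 of the 6 the difference was below 0, at -0.71. Of neural genes 3 of 7 fell, with sums of 1070 to 1605 and of 963 and 1041 over 9 genes. The neural list did not move as a whole. In it 5 of 7 genes had a difference below 0, and the highest was 1.27. In 1 neural gene both arrays with FoxJ1 lay above all ICD arrays. Of 8 genes of mesoderm and muscle 2 were tested, 1 of which rose and 1 fell, and of 5 blood and 5 endoderm genes 1 and 2 were tested and 0 passed. No marker was at 0 on any array, but every list had 1 or more at or below an array's background level. From ICD replicate 1 through to ICD+FoxJ1 replicate 2, these were 6, 3, 3, 1 and 4 of 9 ionocyte genes. For 9 neural genes they were 1, 0, 1, 3 and 3, and for 13 multiciliated cell genes 6, 1, 1, 0 and 0. Per array they were 3 of 5 endoderm, 5 to 7 of 8 mesoderm and muscle and 1 to 5 of 5 blood genes. The ionocyte and neural sums thus include genes at background. The part of these cell types in the ribosomal protein differences was not tested. Among 831 other probe sets as bright, with a mean signal over 1000, the median difference was -0.11, and in 32.9% both arrays with FoxJ1 lay below all ICD arrays. The part of brightness was not tested either.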

How the data were processed

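The deposited values are linear signal intensities, 1 per probe set and array, which the authors made with MAS5 (per the submitters' processing notes). No version is given in the sources used here. Each array had been scaled, as the values show, to a trimmed mean near 200.03. Of 15611 probe sets, 120 controls were left out. Symbols came from GEO's platform annotation, with 9304 probe sets carrying 1 symbol, 195 carrying several and 6112 without, and 9227 identifiers were found in RefSeq's table of Xenopus_laevis_v10.1, used for names only. Probe sets with several symbols name no member.

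Values were put on the scale log2(signal + 16), and the dimmest 25% by its mean over the arrays were left out. A linear model was fitted with limma (version 3.58.1, R 4.3.3; lmFit, eBayes with a variance trend), with two-sided p-values adjusted after Benjamini and Hochberg over the 11618 probe sets left and a threshold of 0.05. Homeolog pairs were fitted alike on L minus S. The code was tested on simulated data with known changes. It recovered 0.3% of changes of log2 0.4, 28.5% of log2 1 and 97.9% of log2 2. Of its calls there, 8.11% were on unchanged probe sets. Changes about as small as the median of the ribosomal protein genes were thus rarely called in the simulation. It changed 200 probe sets drawn regardless of brightness, where 868 were called in the data. Its rates are therefore not those for the ribosomal protein genes here. Figures used matplotlib 3.10.9. Members, lists and the division into poly-A batches were chosen with earlier results of these data known. Named were members past the threshold, the 4 highest and 4 lowest differences, the P stalk and rpsa, the 5 pairs with the smallest p, the 3 brightest and 3 dimmest members, and of other lists the 3 smallest p. Members named for their structural role, batch behaviour or several probe sets were chosen after their values were seen. Precision is limited by the number of arrays. Sequences were not used here.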

Additional observations from a re-analysis of the deposited data

How the results depend on the processing

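The alternatives were other added signals, filters, scalings and variance models, blocks, and the removal of each array. The median difference of the ribosomal protein genes stayed below 0 in every alternative run, from -0.46 to -0.30, and moved by less than 0.15, the spread between replicates. Their count past the threshold, 3, was 1 with no filter, 1 with no variance trend, 6 after quantile normalization, 6 with the poly-A batch as a block, 0 on the arrays with poly-A signal alone, and 0 to 3 without single arrays. The gap between subunit medians, -0.13, ran from -0.23 to -0.10 without single arrays, and was -0.08 among poly-A arrays alone and -0.09 without probe sets of types _s_at and _x_at. Calls over all probe sets, 868, were 189 among poly-A arrays alone and 185 to 1391 without single arrays. Homeolog pairs past the threshold, 15, were 37 with 64 added to the signal, 8 with the poly-A batch as a block, 0 among poly-A arrays alone, and 1 to 16 without single arrays. With the replicate number as a block (replicate block), 316 probe sets, 0 ribosomal protein genes and 26 pairs passed. Deviations from the group means had correlations of -0.06 and -0.32 between arrays of the same number. These cannot decide pairing, since the deviations of the FoxJ1 arrays mirror each other and the arrays numbered 2 lie in different poly-A batches. The numbers were not taken as pairs, and whether they pair the arrays is not known. Leaving out probe sets of types _s_at and _x_at, added after seeing the data, kept 3 calls and a median of -0.37. The cause of these movements was not tested. Signals near background limit rps10.L and rps20.L.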
